A study of Homo sapiens with 19 samples.

Results

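The genes described here are the 8 that encode the subunits of the cytosolic chaperonin, TCP1, CCT2, CCT3, CCT4, CCT5, CCT6A, CCT7 and CCT8, and the pair that encode the cytosolic HSP90 proteins, HSP90AA1 and HSP90AB1. They were taken by symbol, and all 10 were present among the 58051 human gene identifiers of the exon and gene-body count tables. The study sequenced total RNA from subcellular fractions of untreated K562 cells, a human erythroleukaemia line. Of 19 libraries, 3 came from a nuclear wash prepared without rRNA depletion, and rRNA was depleted from 4 libraries each of the nuclear wash, the nucleus, the cytoplasm and the whole cell. All groups shared the cell line, the absence of treatment, Trizol LS extraction, added synthetic yeast spike-in RNA and the SMARTer stranded total RNA kit with one fixed mass of input RNA. Levels are therefore relative to the RNA within each fraction, and less of a fraction's RNA cannot be told apart from more of every other RNA. The labels do not say whether the numbered replicates came from separate cultures, so every p-value measures the spread between libraries, which may be technical. Column names carried the prefix 1 for replicates 1 and 2 of each depleted group and the prefix 2 for replicates 3 and 4. The 3 undepleted libraries carried names that did not match the depleted numbers. The sources used here do not say how the fractions, the wash among them, were separated.

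The chaperonin, also called TRiC or CCT, is a double ring in which the subunits each take a fixed place, and it folds actin, tubulin and other proteins inside a closed chamber. HSP90 is a dimeric ATPase that receives partly folded kinases, steroid receptors and other clients from HSP70. The alpha form, from HSP90AA1, is the stress-inducible one, and the beta form, from HSP90AB1, is largely constitutive. Heat shock factor binds promoters at inverted repeats of a GAA unit. An mRNA is spliced at or near its gene and translated in the cytosol, so reads from its introns mark precursor RNA, whereas exon reads mark both precursor and mature RNA. Small nucleolar RNAs of the H/ACA class, which guide pseudouridylation, are commonly cut out of the introns of such housekeeping genes and act in the nucleolus.

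TCP1 is annotated with a pair of nested H/ACA RNAs, SNORA20 and SNORA29. SNORA29 is shown because it had no counts in any library and its tail box departs from the class pattern. In the sequence, read from GENCODE release 29 transcripts on GRCh38, capitals mark a run that fits the H box pattern ANANNA and the 3 bases that lie 3 bases before the 3′ end, where the ACA box stands. SNORA29 lies on chromosome 6 from 159785594 to 159785733 on the minus strand and is 140 bases long.
SNORA29: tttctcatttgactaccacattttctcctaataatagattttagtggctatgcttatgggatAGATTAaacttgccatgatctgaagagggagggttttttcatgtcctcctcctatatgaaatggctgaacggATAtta
The bases at the place of the ACA box were ATA.

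A start region of each HSP90 gene is shown because it holds runs of heat shock units. The other start windows of both genes held no such run, and both stretches shown lie within the annotated spans of their genes. A lower nuclear level was common to all 10 genes and does not single out this pair. Capitals in the stretches of 100 bases, from RefSeq on GRCh38.p14, mark the units. HSP90AA1 is shown from chr14:102087045-102087144 on the minus strand, and HSP90AB1 from chr6:44247766-44247865 on the plus strand.
HSP90AA1: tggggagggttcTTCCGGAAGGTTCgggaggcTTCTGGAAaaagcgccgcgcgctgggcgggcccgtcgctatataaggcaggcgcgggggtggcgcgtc
HSP90AB1: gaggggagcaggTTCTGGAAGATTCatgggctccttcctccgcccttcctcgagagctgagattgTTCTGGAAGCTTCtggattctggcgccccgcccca
Both strands were searched, with overlapping matches allowed, for the 2-unit forms GAANNTTC and TTCNNGAA and for the 3-unit forms GAANNTTCNNGAA and TTCNNGAANNTTC; each 3-unit run contains 2-unit runs. RefSeq start windows of 300 bases existed for 9 of the 10 genes, 14 windows in all, with none matched for CCT6A. A 3-unit run lay in 2 windows, 1 each of HSP90AA1 and HSP90AB1, and a 2-unit run in 5 windows, 1 each of TCP1, CCT2, CCT4, HSP90AA1 and HSP90AB1. Among all 35116 windows of this length, 0.49% held a 3-unit run and 13.5% a 2-unit run. A match is a run of letters and is not evidence of a bound site.

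Exon counts summed to between 1373755 and 7955415 per depleted library and to between 923464 and 1801293 per undepleted one. The mitochondrial rRNA MT-RNR2 took 24.2 to 36.5% of exon counts in undepleted wash libraries and 4.92 to 26.2% in depleted libraries. All 8 K562 markers had counts, with summed levels of 2652 to 3724 CPM (counts scaled to one common library total) in the nuclear wash, 1859 to 2039.6 in the nucleus, 3214 to 4607 in the cytoplasm and 2818 to 3383 in the whole cell. The epithelial pair EPCAM and KRT8 also had counts, at summed levels of 494 to 726, 173 to 194, 411 to 491 and 295 to 353 CPM in the same fractions. Their part in the results was not tested.

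Each of the 10 mRNAs was lower in the nucleus than in the cytoplasm. This comparison asks how the RNA of the nucleus differs from that of the cytosol, and in it all 10 genes were called lower with edgeR's quasi-likelihood test, where 37.5% of the 15940 tested genes were called lower. The fall ran between 2.23-fold for HSP90AA1 and 5.13-fold for CCT7, and the median log2 fold change was -1.76 over the 10 genes and 0.03 over all tested genes. Levels of single genes are given as CPM of exon counts after scaling by edgeR's trimmed mean of M-values, an estimate that holds the bulk of genes level between fractions. All 10 directions held under each scaling tried, spike-in totals among them.

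CCT7, which encodes the eta subunit (chromosome 2, 73233420 to 73253021, plus strand), had 57.4, 67.0, 64.2 and 57.6 CPM in replicates 1 to 4 of the nucleus, against 308, 289.8, 344 and 324 CPM in the cytoplasm. No nuclear library came near a cytoplasmic one, and the log2 fold change was -2.36 (SE 0.120, adjusted p = 4.51e-13). TCP1, the alpha subunit (chromosome 6, 159778498 to 159789749, minus strand), had 258, 245, 233 and 196 CPM in the nucleus and 1250.2, 1172, 985 and 1005 CPM in the cytoplasm. Its log2 fold change was -2.24 (SE 0.125, adjusted p = 1.62e-12). CCT4, the delta subunit (chromosome 2, 61868089 to 61888804, minus strand), had 117, 118, 117 and 92.9 CPM in the nucleus and 479, 439, 497 and 495 CPM in the cytoplasm. The libraries of CCT4 and TCP1 likewise did not overlap between these fractions, and CCT4 changed by -2.10 (SE 0.108, adjusted p = 5.52e-13). CCT3, the gamma subunit (chromosome 1, 156308968 to 156367873, minus strand), averaged 362 ± 36.1 CPM in the nucleus and 1483 ± 196 CPM in the cytoplasm (SD, n = 4 each), a log2 fold change of -2.03.

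The other subunits fell by less. CCT5, the epsilon subunit (chromosome 5, 10249921 to 10266412, plus strand), averaged 204 ± 14.9 CPM in the nucleus and 717 ± 34.9 CPM in the cytoplasm. CCT8, the theta subunit (chromosome 21, 29055805 to 29073797, minus strand), averaged 374 ± 53.3 CPM in the nucleus and 1216 ± 203 CPM in the cytoplasm. These are log2 fold changes of -1.82 and -1.70. CCT6A, the zeta subunit (chromosome 7, 56051630 to 56063989, plus strand), averaged 221 ± 41.7 CPM in the nucleus and 667 ± 32.4 CPM in the cytoplasm, a log2 fold change of -1.59. CCT2, the beta subunit (chromosome 12, 69585334 to 69601570, plus strand), averaged 168 ± 21.7 CPM in the nucleus and 498 ± 20.6 CPM in the cytoplasm, a log2 fold change of -1.57. The smallest of the ring's falls therefore exceeded the spread between its libraries, with an adjusted p of 1.06e-10 for CCT2.

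HSP90AB1 (chromosome 6, 44246166 to 44253888, plus strand) had 1127, 1347, 883 and 823 CPM in the nucleus and 3109.8, 3117, 3652 and 3735 CPM in the cytoplasm, a log2 fold change of -1.70 (SE 0.203, adjusted p = 1.52e-07). HSP90AA1 (chromosome 14, 102080738 to 102139699, minus strand) had 1515, 1611, 941 and 1000.3 CPM in the nucleus and 3159, 2870.3, 2487 and 2769.6 CPM in the cytoplasm. Neither gene overlapped between the fractions, and the change of HSP90AA1 was -1.16 (SE 0.246, adjusted p = 0.000231). Its standard error was the widest of the 10. In the nucleus 8 of the 10 mRNAs, both HSP90 mRNAs among them, had higher levels in both libraries of prefix 1 than in both of prefix 2. In the nuclear wash 4 were higher in prefix 1, and in the whole cell 6 were higher and 1 lower. In the cytoplasm 5 were higher and 3 lower, HSP90AB1 among the lower. No share of all tested genes that split this way is given, so these counts cannot be read as particular to the 10.

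**Figure D1:**
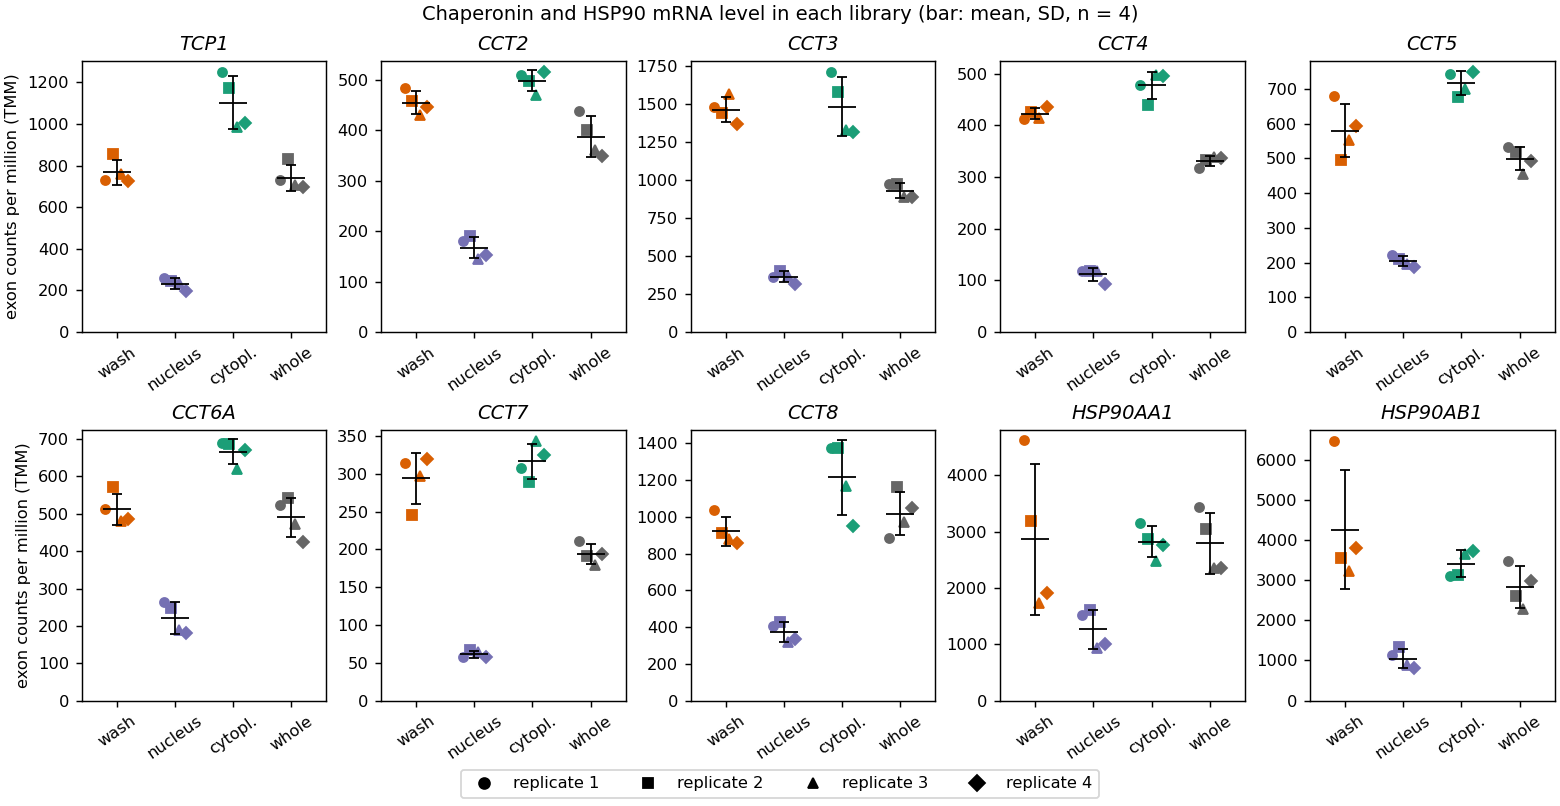
Level of each of the 10 mRNAs (CPM, from 0) in every library of the nuclear wash, nucleus, cytoplasm and whole cell; points are libraries, shaped by replicate, and bars are the mean and SD of 4. The nuclear libraries lie lowest for all 10 genes on average, as for CCT7 with a mean of 61.5 CPM against 316 CPM in the cytoplasm.

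Against the nucleus, the nuclear wash had all 10 mRNAs at a higher level relative to its other RNA. All 10 were called higher, where 36.7% of tested genes were, with folds from 2.26 for HSP90AA1 to 4.76 for CCT7 and a median log2 fold change of 1.61 against 0.06 over all tested genes. This direction rests on the scaling: with libraries scaled by their spike-in totals all 10 values turned negative, between -1.29 for CCT6A and -0.30 for CCT7, and 9 were called lower, while the median of all tested genes stood at -2.47. Under that scaling the 10 mRNAs thus remained above the median gene.

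CCT3 had 1477, 1442, 1564 and 1367 CPM in the nuclear wash and 362, 401, 371 and 314 CPM in the nucleus, a log2 fold change of 2.01 (SE 0.121, adjusted p = 2.08e-11). CCT7 had 315, 246, 297 and 319.9 CPM in the nuclear wash against a nuclear mean of 61.5 ± 4.82 CPM, a change of 2.25 (SE 0.119, adjusted p = 4.76e-12). CCT4 had 413, 427, 415 and 436 CPM in the nuclear wash, a change of 1.92 against the nucleus. The 3 genes did not overlap between the fractions. The changes of TCP1, CCT5, CCT2, CCT8 and CCT6A against the nucleus were 1.72, 1.51, 1.44, 1.30 and 1.21, with adjusted p-values from 6.29e-08 for CCT8 to 1.99e-10 for TCP1.

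HSP90AB1 had 6459, 3545, 3218 and 3801 CPM in the nuclear wash, so replicate 1 stood well above the others, and the change against the nucleus was 2.03 (SE 0.205, adjusted p = 2.65e-08). HSP90AA1 had 4626, 3199, 1728 and 1920.5 CPM in the nuclear wash, again highest in replicate 1, and the change was 1.18 (SE 0.246, adjusted p = 0.00024). Its wash libraries all lay above its nuclear ones.

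Between the nuclear wash and the cytoplasm the 10 mRNAs differed by at most 0.52 on the log2 scale with the trimmed-mean scaling. With spike-in totals all 10 were called lower in the wash, with a median of -3.32 over the 10 and -3.10 over all tested genes and with -3.09 for HSP90AA1 and -2.82 for HSP90AB1. The median of all tested genes was thus lower too, so this count does not set the 10 apart. With the trimmed mean, TCP1, CCT5, CCT6A and CCT8 were called lower in the wash, 4 of 10 where 21.4% of tested genes were called lower, and 0 were called higher where 22.8% were; 0 were higher at an unadjusted p under 0.05 in edgeR, and 0 were called higher by DESeq2. The median log2 fold change was -0.15 over the 10 and 0.05 over all tested genes. TCP1 had 729, 854, 758 and 728 CPM in the nuclear wash, below every cytoplasmic library, and its change was -0.52 (SE 0.118, adjusted p = 0.00123). CCT8 had 1038, 912, 881 and 856 CPM in the wash and 1375, 1374, 1168 and 949 CPM in the cytoplasm, which overlapped, with a change of -0.40 (SE 0.137, adjusted p = 0.022). CCT6A and CCT5 gave -0.38 (adjusted p = 0.0191) and -0.31 (adjusted p = 0.0302). The lower calls numbered 2 without cytoplasm replicate 1 and 8 with gene-body counts. Without a filter on low counts TCP1 was the 1 called lower and HSP90AB1 the 1 called higher, at 0.39. No share of all tested genes is given for these alternatives, so their counts cannot be read as particular to the 10.

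The remaining 6 did not pass the test between wash and cytoplasm. CCT3 averaged 1462 ± 81.8 CPM in the wash and 1483 ± 196 CPM in the cytoplasm, a change of -0.02 (adjusted p = 0.908). CCT7, CCT2 and CCT4 gave -0.11, -0.13 and -0.18, although every wash library of CCT4 lay below every cytoplasmic one. HSP90AB1 gave 0.32 (SE 0.197, adjusted p = 0.193) and HSP90AA1 0.02 (SE 0.243, adjusted p = 0.948).

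The value for HSP90AA1 averages libraries that differed by column-name prefix. With prefix 1 alone the wash exceeded the cytoplasm by 0.37 on the log2 scale (adjusted p = 0.0912), and with prefix 2 alone it changed by -0.53 (adjusted p = 0.000189). The difference between the prefixes was 0.90 (edgeR interaction term, adjusted p = 0.0132), a test added after the data had been seen, in which 1.82% of tested genes were called. HSP90AA1 was the only one of the 10 called there. HSP90AB1 differed between the prefixes in the same direction, by 0.76 (unadjusted p = 0.00988, adjusted p = 0.187 in edgeR), with 0.68 in prefix 1 alone (adjusted p = 0.024) and -0.075 in prefix 2 alone (adjusted p = 0.648). In the same test none of the 10 was called for the nucleus against the cytoplasm, the nuclear wash against the nucleus or the nuclear wash against the whole cell, where 0.408, 0.157 and 0.703% of genes were, nor in the remaining pair of comparisons, where 0 genes were. At an unadjusted p under 0.05 the difference involved HSP90AA1 in each of the first 3, and CCT6A and HSP90AB1 in the nucleus against the cytoplasm. What the prefixes stand for is not stated in the labels, and their part was not tested further.

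**Figure D2:**
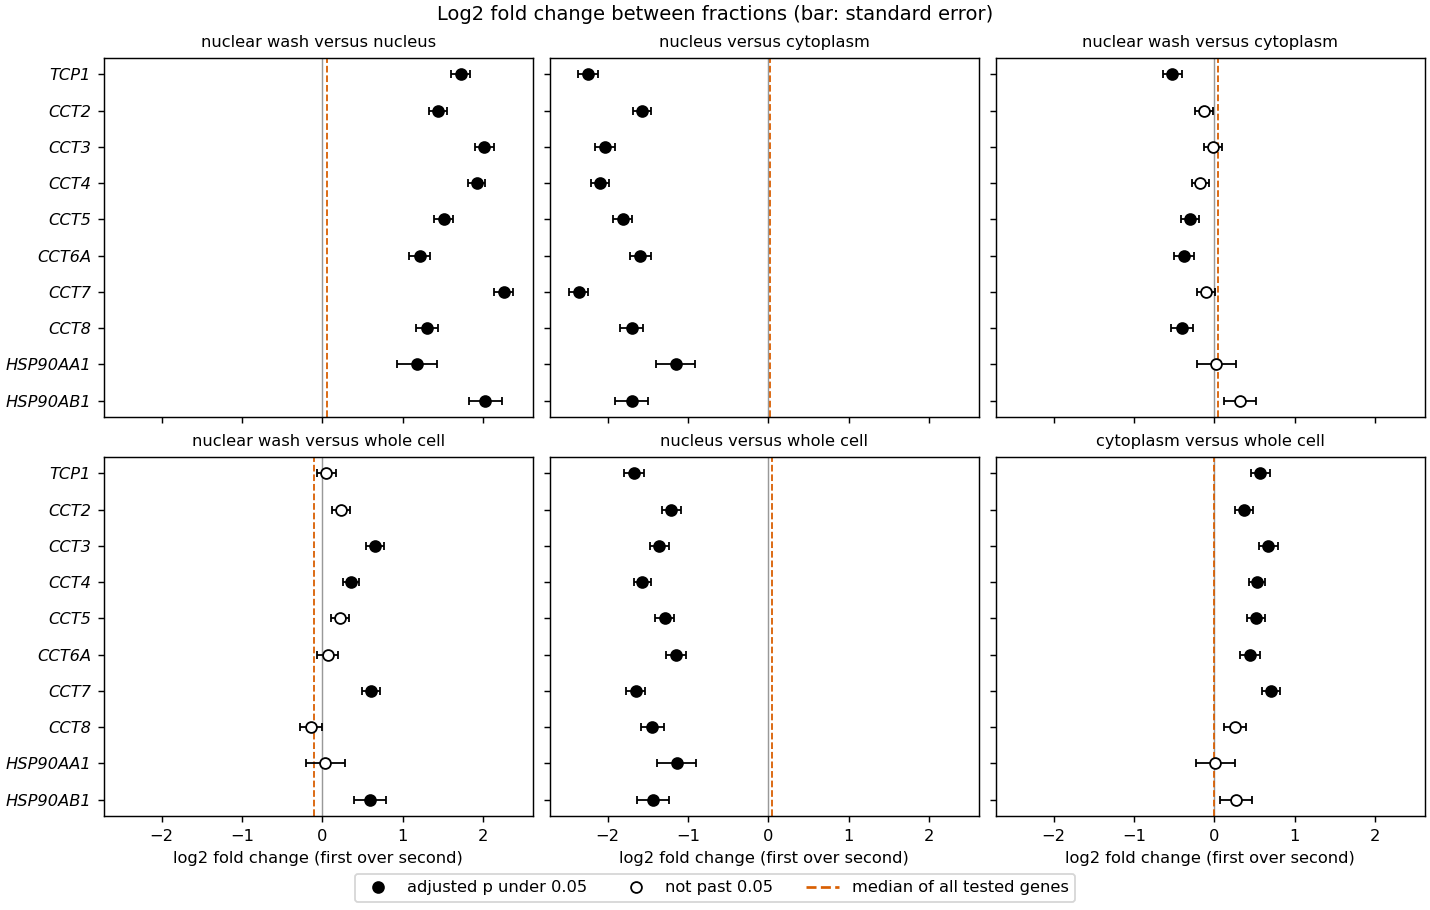
Log2 fold change of each mRNA in 6 comparisons of the fractions (first named over second), with bars of 1 standard error from edgeR; filled points passed an adjusted p of 0.05 and the dashed line is the median of all tested genes. The nuclear wash against the nucleus lies at 1.18 or above and the nucleus against the cytoplasm at -1.16 or below, while the nuclear wash against the cytoplasm lies between -0.52 and 0.32.

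Against the whole cell, the nucleus again held less of every one of the 10 mRNAs, all called lower where 29% of tested genes were, with changes from -1.67 for TCP1 to -1.14 for HSP90AA1 and a median of -1.40 against 0.04 over all tested genes. The cytoplasm was called higher for 7 of 10, where 22.3% of tested genes were, with a median of 0.48 against -0.00. CCT7 led with 0.71 (adjusted p = 3.44e-05), followed by CCT3 at 0.67, and CCT2 was the smallest called at 0.36 (adjusted p = 0.0106). CCT8 at 0.26, HSP90AB1 at 0.27 and HSP90AA1 at 0.01 did not pass. The nuclear wash was called higher for CCT3, CCT7, CCT4 and HSP90AB1, 4 of 10 where 14.6% of tested genes were, with 0.65 (adjusted p = 0.000204), 0.60 (adjusted p = 0.000298), 0.35 (adjusted p = 0.011) and 0.59 (adjusted p = 0.0257). Scaled by spike-in totals, all 10 were instead called lower than the whole cell in both the cytoplasm and the nuclear wash. Under that scaling the median of all tested genes was lower in both fractions too, so this count does not set the 10 apart. The call for HSP90AB1 was lost without wash replicate 1, where its change was 0.32 (adjusted p = 0.139), and without whole-cell replicate 2 or 3. These comparisons share the whole-cell libraries.

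In the whole cell, mean levels per kilobase of annotated exon ran, in CPM per kilobase, from 949.9 for HSP90AB1 through 533 for HSP90AA1, 305 for CCT8, 232 for CCT3, 151 for TCP1, 126 for CCT6A, 117 for CCT4, 89.6 for CCT2 and 85.5 for CCT5 to 54.0 for CCT7. Of neighbours in this order, CCT6A and CCT4 overlapped, as did CCT2 and CCT5, and the others did not. With the length of the principal transcript the order changed for some: TCP1 averaged 297, CCT2 189.8, CCT6A 180.4, CCT5 136 and CCT4 131 CPM per kilobase, so that CCT2 stood before CCT6A and CCT4 after CCT5. HSP90AB1 stayed first and CCT7 last in the whole cell. With all annotated exons these held the same places on average in every depleted group. In the nucleus the mean was 351 CPM per kilobase for HSP90AB1 and 241 for HSP90AA1, which overlapped, and CCT7 stood at 17.1. CCT3 exceeded CCT8 in the nuclear wash without overlap, at 364 against 276 CPM per kilobase, while CCT8 exceeded CCT3 in the whole cell without overlap. In the cytoplasm the pair overlapped, at 369 for CCT3 and 364 for CCT8.

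Because the subunits are built into the ring in equal number, the share of each gene in the summed exon counts per kilobase of the 8 ring genes was also compared, a measure that needs no scaling between libraries. The share of CCT3 was 25.9, 26.4, 28.8 and 25.8% in the nuclear wash, 19.2, 20.7, 22.5 and 20.5% in the nucleus, 24.1, 23.3, 21.5 and 21.8% in the cytoplasm and 21.0, 19.4, 19.9 and 19.7% in the whole cell. The depleted wash libraries thus lay above those of the other fractions, while the undepleted wash had 22.1, 25.2 and 29.2%, of which the lowest lay within the cytoplasmic range. TCP1 averaged 11.4% in the nuclear wash, 10.8% in the nucleus, 13.8% in the cytoplasm and 13% in the whole cell. CCT8 averaged 20.2% in the nuclear wash and 25.6% in the nucleus, and CCT6A 9.64% and 12.9%, while CCT7 averaged 6.02% and 3.96%. Of 48 comparisons of a subunit between a pair of groups, 17 showed no overlap, each at the smallest p that 4 against 4 libraries allow in a two-sided exact permutation test, 0.0286. None of the 48 passed after Benjamini-Hochberg adjustment, with a lowest adjusted p of 0.0807. The 48 are not independent, since the 8 shares of a library sum to its whole and the pairs of groups reuse libraries. A higher share of any subunit thus lowers the summed share of the others. No such count is given for other sets of genes, so the 17 cannot be read as particular to the ring.

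The ratio of HSP90AA1 to HSP90AB1, in exon counts per kilobase, was 0.407, 0.512, 0.305 and 0.287 in the nuclear wash, 0.763, 0.679, 0.605 and 0.69 in the nucleus, 0.577, 0.523, 0.387 and 0.421 in the cytoplasm and 0.563, 0.665, 0.587 and 0.449 in the whole cell. The beta form thus exceeded the alpha form in all 16 depleted libraries, and the nuclear ratios lay above every wash and every cytoplasmic ratio. The log2 ratio differed by -0.89 for the nuclear wash against the nucleus and by 0.53 for the nucleus against the cytoplasm, each with p = 0.0286 and an adjusted p of 0.0857 over 6 comparisons (two-sided exact permutation test). None of the 6 passed the adjusted threshold of 0.05. The other differences were 0.28 for the nucleus and -0.61 for the nuclear wash against the whole cell, -0.36 for the nuclear wash against the cytoplasm and -0.25 for the cytoplasm against the whole cell. With the length of the principal transcript in place of all annotated exons, the ratio in nucleus replicate 1 was 1.06, above parity. The 3 undepleted wash libraries had ratios of 0.442, 0.250 and 0.265.

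**Figure D3:**
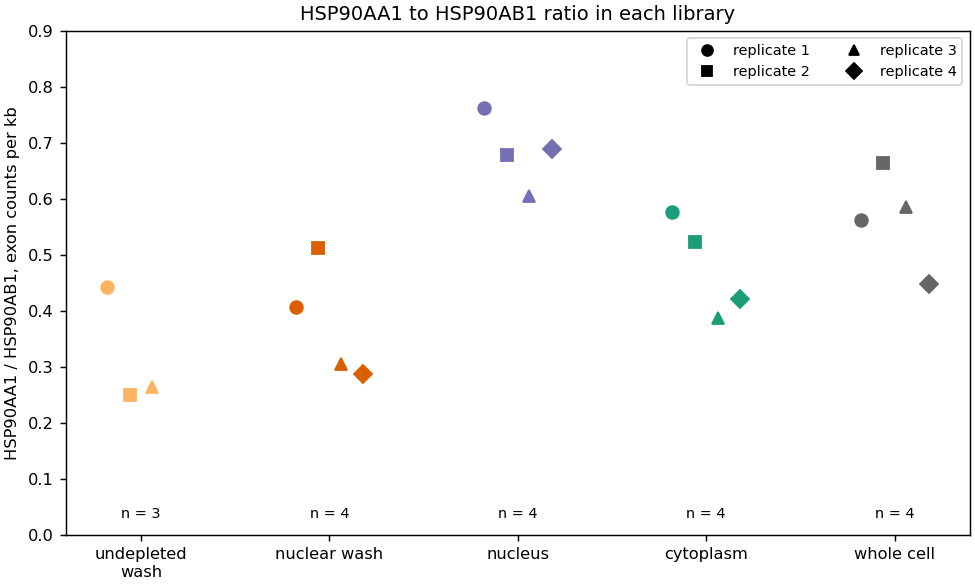
Ratio of HSP90AA1 to HSP90AB1 exon counts per kilobase in each library of the undepleted nuclear wash, nuclear wash, nucleus, cytoplasm and whole cell; points are libraries, shaped by replicate. The 4 nuclear libraries, from 0.605 to 0.763, lie above all depleted nuclear wash libraries, the highest of which is 0.512.

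The intronic share of these genes was highest in the nucleus and lay below the median of all genes in every fraction. The intronic share, which is the part of a gene's gene-body count not counted in its exons, summed over the 10 genes to 1.29 ± 0.367% in the nuclear wash, 17.5 ± 1.37% in the nucleus, 0.666 ± 0.216% in the cytoplasm and 3.20 ± 0.707% in the whole cell (SD, n = 4 each). That sum is weighted by the abundant HSP90 mRNAs, and the median of the 10 single shares was 2.34% in the nuclear wash, 27.9% in the nucleus, 1.03% in the cytoplasm and 5.81% in the whole cell. Across the 9587 genes with enough counts, the median share was 32.0% in the nuclear wash, 73.0% in the nucleus, 14.6% in the cytoplasm and 50.3% in the whole cell. The 8 ring genes together had a nuclear share of 29.9 ± 3.41% and the HSP90 pair 4.67 ± 0.359%.

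Between single genes the nuclear share ranged widely. CCT4 had 53.0, 51.3, 43.9 and 45.1% in the nucleus against a mean of 1.95% in the cytoplasm, and 21.4% of the 9587 genes had a nuclear share at or below its mean of 48.3%. CCT7 had 47.3, 46.3, 42.7 and 40.3% in the nucleus against 2.00% in the cytoplasm. These were the highest of the 10, and the means of CCT2, CCT5, CCT6A, CCT3, CCT8 and TCP1 followed at 33.2, 30.1, 28.7, 27.3, 24.8 and 22.5%. HSP90AB1 had 7.30, 6.44, 5.53 and 5.43% in the nucleus, and HSP90AA1 3.48, 3.18, 3.57 and 3.36%. The HSP90 genes stood near the bottom of all genes, with 2.11% and 1.38% of genes at or below their nuclear means.

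All 10 genes had a higher intronic share in the nucleus than in the cytoplasm, where 88.4% of the 9587 genes did, and a higher one in the nucleus than in the whole cell, where 75.3% did, so these counts are those of most genes (two-sided exact permutation test, adjusted p over all genes 0.0316 and 0.0375). Likewise all 10 were lower in the nuclear wash than in the nucleus, where 84% of genes were (adjusted p = 0.0335), and lower in the cytoplasm than in the whole cell, where 84.9% were (adjusted p = 0.0332). The share in the wash exceeded that in the cytoplasm for 6 of 10, where 62.8% of genes did (adjusted p = 0.0444 in this exact test). TCP1, CCT4, CCT7 and HSP90AB1 did not pass there. The wash was below the whole cell for 8 of 10, where 58.5% of genes were (adjusted p = 0.0483 in this exact test), with CCT8 and HSP90AA1 not passing. The unadjusted p behind each of these calls was 0.0286.

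**Figure D4:**
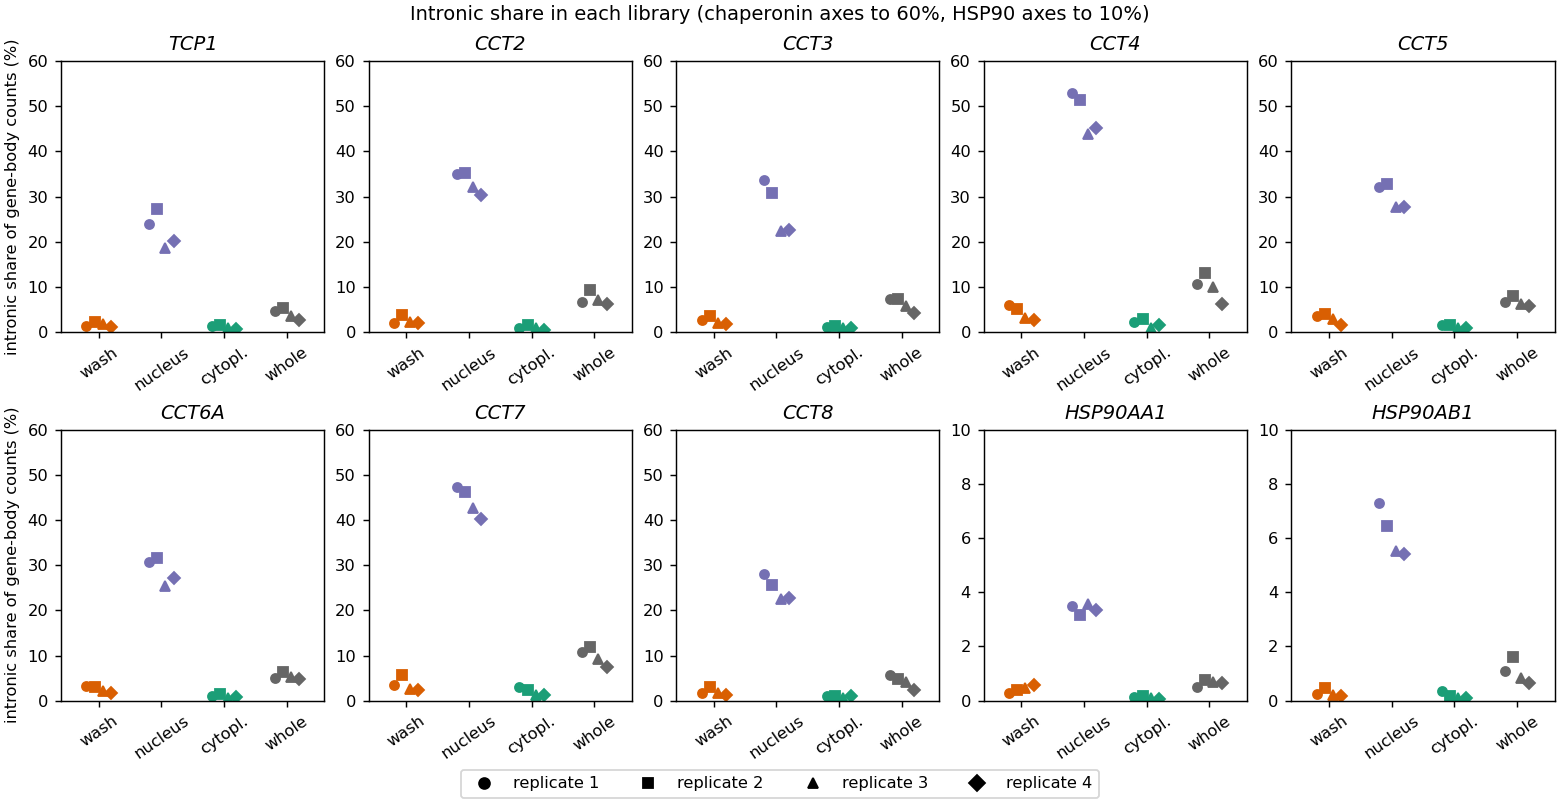
Intronic share (percent of gene-body counts not counted in exons) of each of the 10 genes in every library of the nuclear wash, nucleus, cytoplasm and whole cell; points are libraries, and the HSP90 axes are shorter than the ring axes. The nuclear libraries stand highest for all 10, from a mean of 3.40% for HSP90AA1 to 48.3% for CCT4.

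The share depends on intron length, which differs between the genes. Genes nested on the same strand in TCP1, CCT6A and CCT8 had 0 gene-body counts, although most had exon counts. Reads there may be missing from the gene-body counts of these hosts, and so from their intronic shares and densities. As the density of intronic counts per base in percent of the density of exonic counts, the nuclear means were 23.7% for CCT5, 22.9% for TCP1, 18.6% for CCT6A, 18.1% for CCT2, 17.8% for CCT7, 15% for CCT4, 7.53% for CCT8, 4.14% for HSP90AB1, 2.80% for CCT3 and 0.344% for HSP90AA1. Per base, CCT4 and CCT7 therefore no longer led. The spans of CCT3 and HSP90AA1 include distant annotated first exons, which enlarge their intronic length. In the nucleus the intronic share of 9 of the 10 genes, HSP90AA1 being the exception, was higher in both libraries of prefix 1 than in both of prefix 2. The same held for 6 genes in the nuclear wash, 9 in the cytoplasm and 7 in the whole cell. No share of all genes that split this way is given, so these counts cannot be read as particular to the 10 genes.

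Between the wash preparations 2 of the 10 mRNAs were called. Fitted apart from the other fractions, HSP90AB1 had 5959, 5132 and 7687 CPM in undepleted wash and 4777, 2548, 2272 and 2745 CPM in depleted wash, without overlap, and was the 1 gene of 10 called higher, where 7.75% of 11627 tested genes were (log2 fold change 1.02, SE 0.258, adjusted p = 0.0286). CCT8 had 524, 403 and 379.6 CPM in undepleted wash and 768, 655, 622 and 618 CPM in depleted wash, and was the 1 called lower, where 3.35% were (-0.61, SE 0.171, adjusted p = 0.0413). HSP90AA1 at 0.75 (adjusted p = 0.178) and CCT7 at 0.50 (adjusted p = 0.0665) did not pass. Both calls depended on single libraries: 0 of the 10 were called without depleted replicate 2, 3 or 4, or without undepleted replicate 2 or 3. With the sample code that the column names of both preparations share as a replicate block, 6 were called, 4 higher and 2 lower. No share of all tested genes is given for that fit, so this count cannot be read as particular to the 10. The intronic share of the 10 genes together averaged 0.606 ± 0.196% in undepleted wash (SD, n = 3) and 1.29 ± 0.367% in depleted wash (SD, n = 4), a sum in which HSP90AB1 weighs more in undepleted wash. The 8 ring genes alone had 2.08 ± 0.654% in undepleted wash and 2.52 ± 0.77% in depleted wash, and their libraries overlapped.

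For SNORA20, the nested H/ACA RNA that carried counts, the exon counts moved opposite to those of its host. It had 4, 17, 17 and 22 exon counts in the nuclear wash, 43, 26, 181 and 76 in the nucleus, 2, 5, 8 and 11 in the cytoplasm and 14, 21, 45 and 26 in the whole cell. The nuclear library stood highest within every replicate number, although it held the fewest exon counts there. Relative to TCP1's own exon counts, SNORA20 counts were 0.202 to 0.618% in the nuclear wash, 3.65 to 21.1% in the nucleus, 0.0317 to 0.171% in the cytoplasm and 0.502 to 0.995% in the whole cell. Its log2 fold change was 4.80 for the nucleus against the cytoplasm (SE 0.464, adjusted p = 6.92e-09), -3.27 for the nuclear wash against the nucleus and 1.54 for the nuclear wash against the cytoplasm (adjusted p = 0.0328). TCP1 gave -2.24, 1.72 and -0.52 in the same comparisons. Undepleted wash libraries held 34, 33 and 7 counts, or 1.75 to 7.64% of TCP1's. SNORA20 lies on the same strand as TCP1, mostly outside its exons, and had 0 gene-body counts. Its exon counts therefore cannot be told apart from reads of unspliced TCP1 RNA.

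SNORA29, whose tail box reads ATA, had 0 counts in all 19 libraries in both tables. It lies wholly within an annotated TCP1 exon, over all 140 of its bases, whereas SNORA20 shares 12 bases with one, and SNORA20 also had 0 counts in the gene-body table. How reads that overlap more than one gene were assigned is not given in the sources used here, so a count of 0 inside a host exon says nothing of the RNA's presence. In CCT6A the nested SNORA22B and SNORA15 summed to 30 and 46 exon counts over all 19 libraries. AF129075.1, annotated inside an intron of CCT8, gave 3.66 for the nucleus against the cytoplasm (adjusted p = 1.57e-07) and -2.82 for the nuclear wash against the nucleus, and did not pass for the nuclear wash against the cytoplasm, at 0.84 (adjusted p = 0.193). It lies on the same strand as CCT8 and had 0 gene-body counts in all 19 libraries. Its exon counts therefore cannot be told apart from reads of unspliced CCT8 RNA.

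**Figure D5:**
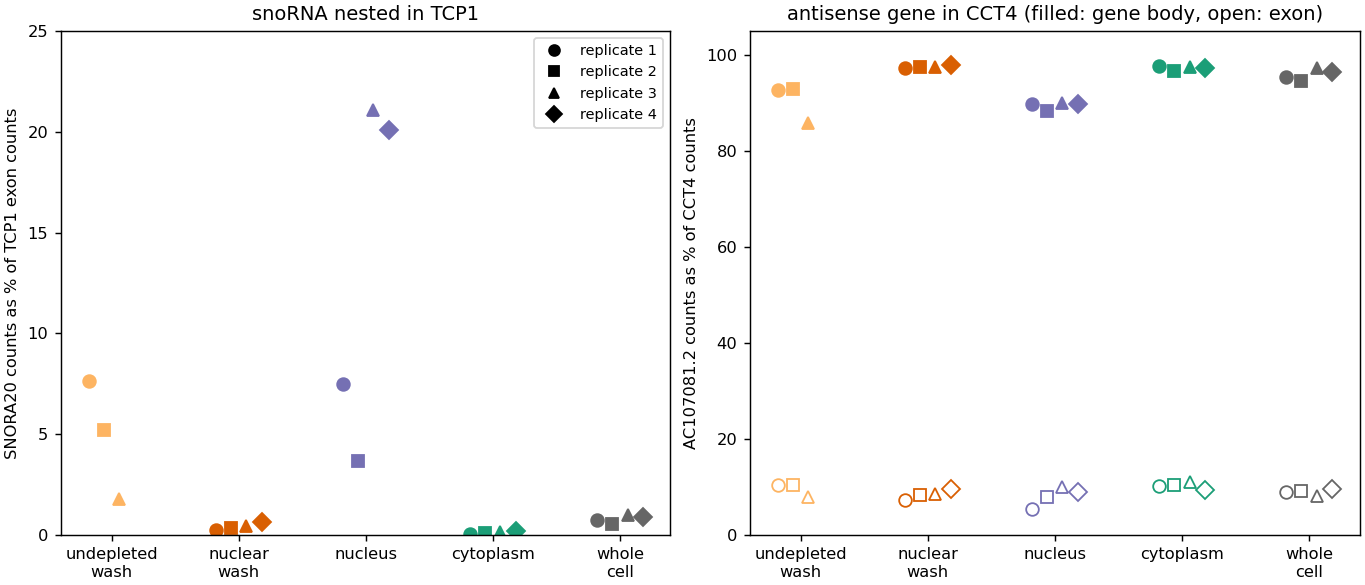
Counts of SNORA20 in percent of the exon counts of its host TCP1 (left) and counts of the antisense gene AC107081.2 in percent of those of CCT4 (right; filled points are gene-body counts, open points exon counts) in each library of the 5 groups. SNORA20 reaches 3.65 to 21.1% in the nucleus and stays at or below 0.171% in the cytoplasm, while AC107081.2 keeps 85.9 to 97.9% of the gene-body counts of CCT4.

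Genes on the opposite strand overlap 5 members, and the strand setting of the counting is not given in the sources used here, so reads of such partners cannot be told apart. AC107081.2, antisense within CCT4 (chromosome 2, 61868432 to 61886082), carried gene-body counts equal to 85.9 to 97.9% of those of CCT4 and exon counts equal to 5.34 to 11%. Its change between nucleus and cytoplasm was -2.40 and that of CCT4 was -2.10. AC012640.4, antisense at the end of CCT5, carried 16.4 to 23.6% of the exon counts of CCT5 and changed by -1.95. ACAT2, a thiolase gene that meets the end of TCP1, carried 9.88 to 26.8% of its exon counts and changed by -2.31. WDR20 at HSP90AA1 and TSACC within CCT3 carried at most 3.53% and 1.36%, and WDR20 moved the other way, by 0.47. Of 22 annotated pseudogenes, 19 had exon counts under 1% of those of their parent gene over the 16 depleted libraries, and CCT6P1, HSP90AB3P and CCT6P3 had 2.28, 1.31 and 1.30%. Summed over copies, pseudogenes held 3.82% for CCT6A and 2.52% for HSP90AB1. Reads may be split between such copies, and reads that matched several places and were not counted cannot be seen here, so the counts of these genes are uncertain.

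The genes around the chaperonin and HSP90 mostly shared the lower nuclear level. Of 11 tested cofactors of the chaperonin, which include the prefoldin subunits that hand it new chains, 9 were lower and 1 higher in the nucleus than in the cytoplasm, with a median of -1.59; over all tested genes 37.5% were lower and 39.3% higher. PFDN4 at -2.66 and PFDN2 at -2.55, both prefoldin subunits, changed most, and PDCL2, a phosducin-like gene, was the exception at 2.02. Of 23 HSP90 cochaperones, 16 were lower and 4 higher, with a median of -0.98. FKBP8, an immunophilin-type cochaperone, gave -3.18, while ITGB1BP2 gave 2.78 and AHSA2P, an AHSA1 relative annotated as a pseudogene, gave 2.30. Of 23 genes of the cytosolic HSP70 system, 17 were lower and 2 higher, with a median of -1.38. The small heat shock protein gene HSPB1 led at -3.97, with the HSP70 exchange factor gene HSPBP1 at -2.75, and DNAJA4, a J-domain cochaperone, and HSPA6, a stress-inducible HSP70, gave 2.56 and 2.13.

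Relatives that act in other compartments did not all follow. HSP90B1 and HSPA5, the HSP90 and HSP70 of the endoplasmic reticulum, were higher in the nucleus than in the cytoplasm, at 0.67 and 0.48. The mitochondrial chaperone genes TRAP1, HSPD1, HSPE1 and HSPA9 were lower, at -1.40, -0.95, -2.20 and -0.98. In the nuclear wash against the cytoplasm HSP90B1 and HSPA5 were higher by 1.91 and 2.05, HSPE1 was lower at -0.65, and TRAP1, HSPD1 and HSPA9 gave -0.02, -0.05 and 0.17 without passing. With spike-in totals the median of all tested genes in this comparison was -3.10, so these are positions relative to the other genes of the fraction. All 6 were higher in the wash than in the nucleus, by 0.90 to 1.57, where 36.7% of all tested genes were higher. That direction also rests on the scaling, since with spike-in totals 19 of all tested genes were called higher in the wash than in the nucleus and 14908 lower. Of the regulators of the heat shock response, HSF1 gave -1.27 and HSBP1 -2.52 in the nucleus against the cytoplasm, and HSF2 gave -0.19 (adjusted p = 0.295). In the wash against the cytoplasm HSF1 gave -0.93, HSBP1 -1.01 and HSF2 0.19, the last without passing.

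In the wash against the cytoplasm, 6 of 11 chaperonin cofactors were lower and 0 higher, led by VBP1 at -1.11 and PFDN1 at -0.95, with a median of -0.57; of all tested genes 21.4% were lower and 22.8% higher. The HSP90 cochaperones gave 10 lower of 23, with FKBP8 at -1.33 and the ubiquitin ligase gene STUB1 at -0.88, and 1 higher, AHSA2P at 0.73. The HSP70 system gave 6 lower of 23, near the share over all tested genes, with the nucleotide exchange factor gene BAG1 at -0.91 and HSPB1 at -0.79, and 1 higher, HSPA6 at 1.90. Against the nucleus the wash was higher for 9 of the cofactors, 15 of the cochaperones and 14 of the HSP70 system and lower for 1, 5 and 2, where 36.7% of all tested genes were higher and 35.4% lower. These directions rest on the scaling too, as the median of all tested genes moved from 0.06 with the trimmed mean to -2.47 with spike-in totals. PFDN4 and PFDN2 gave 2.00 and 1.99, the cochaperone genes PTGES3 and STIP1 2.05 and 1.93, and HSPB1 and HSPBP1 3.19 and 2.07. The lower ones with the greatest change were PDCL2 at -2.31, ITGB1BP2 at -2.37, AHSA2P at -1.57, DNAJA4 at -2.51 and DNAJC2 at -0.92.

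Over the 16 depleted libraries some genes outside the family came as close to the mean profile of the ring, or of the HSP90 pair, as the members themselves. Likeness was measured as the root mean square distance of centred log2 CPM from the mean profile of the ring or of the HSP90 pair, among 9003 genes. Closest to the ring were PSMC2, a proteasome ATPase subunit, at 0.0538, TUBB6, a beta-tubulin, at 0.0953, AC012640.4 at 0.1, PAICS, a purine synthesis enzyme, at 0.102 and CORO1C, an actin-binding coronin, at 0.115. The ring genes themselves lay between 0.108 for CCT5 and 0.247 for CCT7, and AC012640.4 overlaps CCT5. Closest to the HSP90 pair were HSPA4 at 0.156, DNAJA1 at 0.163, GSPT1 at 0.194, RRP1B at 0.219 and HTATSF1 at 0.22. HSPA4 is an HSP110-type exchange factor and DNAJA1 a J-domain cochaperone, and HSP90AA1 and HSP90AB1 themselves lay 0.202 from their mean. Each member is part of the mean it is set against. Between single members the distances did not separate the ring from the HSP90 pair. HSP90AA1 lay 0.616 from CCT7 and 0.52 from CCT3, but 0.329 from CCT6A and 0.331 from CCT2. HSP90AB1 lay 0.296 from CCT2 and 0.300 from CCT5, closer than its 0.404 from HSP90AA1. Within the ring, CCT7 lay 0.427 from CCT8. By Pearson correlation over the 16 libraries HSP90AA1 did stand apart. It reached at most 0.860 with a ring gene, CCT2, while the lowest pair within the ring, CCT7 and CCT8, had 0.914. HSP90AB1 did not stand apart, with 0.948 against CCT2.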

How the data were processed

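The deposited files held raw counts of reads per gene, over exons and over gene bodies, which the authors made with cutadapt 2.5, STAR 2.7.0a and featureCounts 1.6.2 on hg38, per the submitters' processing notes. Those notes state no roles; for the annotation release, the strand setting and reads overlapping several genes, the setting is not given in the sources used here. All 19 columns of each table were mapped to samples, and 0 were unused. Of 58051 identifiers, 57447 matched GENCODE release 29 (GRCh38), which gave positions and lengths, and 11 spike-in transcripts were left out of tests. Gene-body counts per library ran from 4274729 to 11384115 in depleted and from 1107400 to 2022408 in undepleted libraries.

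Exon counts were tested with edgeR 4.0.16 in R 4.3.3 (quasi-likelihood test, trimmed-mean scaling, filterByExpr, Benjamini-Hochberg adjustment over all tested genes, threshold 0.05): 15940 genes in one fit of the 16 depleted libraries, and 11627 genes in a separate fit of the nuclear wash preparations. All p-values are two-sided. The intronic share was compared for 9587 genes with 2 or more exon blocks and at least 20 gene-body counts in each depleted library. Genes whose gene-body count fell below their exon count in any depleted library were left out. The exact permutation tests were adjusted over all of the 9587 genes. DESeq2 1.42.0, other scalings, filters, gene-body counts and left-out libraries were alternatives. Only the edgeR steps, for the nucleus against the cytoplasm, were tried on simulated counts. Same-numbered libraries deviated together in all 6 comparisons of fractions, with correlations of 0.104 to 0.379. Libraries of different numbers were not compared in this way, so these values cannot show that the numbers pair the libraries. The main tests left such pairing out, and a fit with the sample numbers in the column names as a replicate block was an alternative. The genes and lists were chosen with earlier results of these data known. The text names the 10 genes, genes nested in or overlapping them, their pseudogenes, the 5 nearest profiles and, of each pathway list, the 2 called genes with the largest change each way, with compartment relatives and regulators in full; some items that this rule covers are not reported here. Counting intervals are not given, since all values have replicates.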

Additional observations from a re-analysis of the deposited data

Results flagged for a closer look

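Of 92 groups of 4 values tested for a library apart from the rest, 3 were marked, and chance marks about 1 in 20. The intronic share of CCT2 in the nuclear wash was 3.75% in replicate 2, against 2.09, 2.11 and 2.23% in the others. CCT4 had 92.9 CPM in nucleus replicate 4, against 117, 117 and 118 CPM in the others. The intronic share of CCT8 in the cytoplasm was 0.663% in replicate 3, against 1.04, 1.10 and 1.11% in the others. HSP90AA1 in the nuclear wash against the cytoplasm differed between the column-name prefixes by 0.90 on the log2 scale (edgeR interaction term, adjusted p = 0.0132), a test added after the data had been seen.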

How the results depend on the processing

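All 10 mRNAs stayed lower in the nucleus than in the cytoplasm and than in the whole cell under every alternative tried, and the count of 10 called did not change when any one library was left out. The other counts depended on how libraries were scaled, since a composition factor fixes the level of the median gene. A count below without the share of all tested genes beside it cannot be read as particular to the 10. With spike-in totals the median log2 fold change of all tested genes was -0.60 for the nucleus against the cytoplasm, -3.10 for the nuclear wash against the cytoplasm, -2.47 for the nuclear wash against the nucleus, -1.24 for the cytoplasm, -1.83 for the nucleus and -4.51 for the nuclear wash against the whole cell. Under this scaling 10 were called lower in the nuclear wash than in the cytoplasm, 9 lower in the nuclear wash than in the nucleus, and 10 lower in each of the cytoplasm and the nuclear wash than in the whole cell, and 0 were called between the wash preparations. For TCP1, CCT2, CCT3, CCT4, CCT5, CCT6A, CCT7, CCT8, HSP90AA1 and HSP90AB1 in that order, spike-in totals gave -0.80, -1.08, -0.52, -0.61, -1.03, -1.29, -0.30, -1.21, -1.27 and -0.48 for the nuclear wash against the nucleus. The same order gave -0.65, -0.86, -0.55, -0.72, -0.71, -0.78, -0.53, -0.96, -1.20 and -0.98 for the cytoplasm against the whole cell. For the nuclear wash against the whole cell it gave -4.34, -4.16, -3.75, -4.06, -4.20, -4.32 and -3.82 from TCP1 to CCT7 and -4.29 and -3.80 for the HSP90 pair, and against the cytoplasm that pair gave -3.09 and -2.82.

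With no composition factor the medians of all tested genes were 0.64, -0.61, -0.25, 0.41 and -0.41 for the nucleus against the cytoplasm, the nuclear wash against the nucleus, and the cytoplasm, nucleus and nuclear wash against the whole cell, and -0.56 between the wash preparations. HSP90AA1 then gave -0.041 for the nuclear wash against the cytoplasm, and -0.22 and -0.27 for the cytoplasm and the nuclear wash against the whole cell. TCP1, CCT2, CCT5 and CCT6A gave -0.25, -0.073, -0.095 and -0.24 for the nuclear wash against the whole cell, and CCT5 and CCT7 -0.20 and -0.0012 between the wash preparations, where 5 were called. The split of all calls, higher against lower in the nucleus than in the cytoplasm, was 6268 to 5970 as reported, 8536 to 3738 with no factor and 4320 to 8117 with spike-in totals. For the nuclear wash against the nucleus it was 5849 to 5641 as reported and 2857 to 8413 with no factor, for the cytoplasm against the whole cell 3557 to 4406 and 1400 to 5717, for the nuclear wash against the whole cell 2334 to 3143 and 1173 to 6280, and for the nucleus against the whole cell 4133 to 4622 as reported, 5290 to 3822 with DESeq2's size factors in edgeR and 6879 to 2895 with no factor.

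Without a filter on low counts 2 were called between the nuclear wash and the cytoplasm, and CCT3 gave 0.051. With gene-body counts 8 were called there and 8 for the nuclear wash against the whole cell, with -0.34 for HSP90AA1 and -0.037 for HSP90AB1 against the cytoplasm, 0.30 for CCT8 against the whole cell and 0.060 for CCT4 between the wash preparations. With the replicate block, 6 were called between the wash preparations, and HSP90AA1 gave -0.077 and -0.038 for the nuclear wash against the cytoplasm and the whole cell; the block changed no other count by over 1.5 times. The ratio of the HSP90 genes, tested within pairs, kept adjusted p-values of 0.15 to 0.25 in the exact test, in which 4 pairs cannot go below 0.125. The median over the 10 genes in place of their sum gave intronic shares that differed by 26.8 points for the nucleus against the cytoplasm, 1.30 for the nuclear wash against the cytoplasm, -25.5 for the nuclear wash against the nucleus, and -4.77, 22.1 and -3.47 for the cytoplasm, nucleus and nuclear wash against the whole cell.

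Leaving out 1 library at a time gave 2 to 4 called for the nuclear wash against the cytoplasm, 7 to 8 and 3 to 4 for the cytoplasm and the nuclear wash against the whole cell, and 0 to 2 between the wash preparations. Single genes whose direction turned when 1 library was left out were CCT3, from -0.082 to 0.057, and HSP90AA1, from -0.32 to 0.19, in the nuclear wash against the cytoplasm; HSP90AA1, from -0.081 to 0.14, in the cytoplasm against the whole cell; and TCP1, from -0.0023 to 0.12, and HSP90AA1, from -0.29 to 0.22, in the nuclear wash against the whole cell. Prefix 1 alone gave HSP90AA1 -0.11 for the cytoplasm against the whole cell; prefix 2 alone gave it -0.53 and -0.40 for the nuclear wash against the cytoplasm and the whole cell, and CCT3 0.15 and HSP90AB1 -0.075 for the wash against the cytoplasm. The cause of these changes was not tested.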
